A study of Homo sapiens with 40 samples.

Results

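The 42 genes described here encode parts of the cilium, the antenna-like projection of the cell surface, and they were picked as a group by name from the 19962 genes of a count table of RKO cells depleted of IGF2BP2 or IGF2BP3. They comprise 8 subunits of the BBSome, 3 chaperonin-like Bardet-Biedl syndrome (BBS) genes, the GTPase gene ARL6, 12 genes of the intraflagellar transport (IFT) complex IFT-B, 6 of IFT-A, 5 of the transport motors, 5 of the basal body and transition zone, and MNS1 and MAPK15. All 42 were matched to the table by symbol. MAPK15, MNS1 and BBS12 entered the group because they differed in cells depleted of IGF2BP2, so wherever IGF2BP2-depleted libraries or their reference groups are compared their values are given as a description without a test. The other 39 were listed to ask whether cilia genes move together.

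A cilium is built on a basal body derived from a centriole, and its core of microtubules is extended at the tip. IFT trains carry cargo: the IFT-B complex travels outward with a heterotrimeric kinesin, and IFT-A and dynein-2 bring the trains back. The BBSome rides on these trains and carries membrane proteins out of the cilium, and the transition zone at the base acts as a gate. Primary cilia are usually taken apart before cells divide. IGF2BP2 and IGF2BP3 are RNA-binding proteins that bind many mRNAs and influence their stability and translation.

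RKO is an established human colorectal carcinoma line, here with Cas9 under a doxycycline-inducible promoter and GFP. Each of 3 lines was transduced with a pair of guides and BFP and sorted for BFP, with guides against the non-coding AAVS1 locus (sgAAVS1), IGF2BP2 (sgIGF2BP2) or IGF2BP3 (sgIGF2BP3). In each line, 1 group received doxycycline (Dox) at 250 ng/mL for 72 hours to induce Cas9 and 1 group received DMSO. In the sgIGF2BP2 line without Dox, cells were transfected with a non-targeting siRNA (siControl) or an siRNA pool against IGF2BP2 (siIGF2BP2), and in the sgIGF2BP3 line with siControl or a pool against IGF2BP3 (siIGF2BP3), at 75 nM for 48 hours. All 10 groups held 4 libraries of poly(A) RNA, each from 1 culture well, and all cells carried inducible Cas9 and received 4-thiouridine (s4U) at 250 µM for 2 hours before harvest. Dox groups are induced, sorted cell populations in which some cells may keep an intact target gene, and each siRNA pool was tested in 1 line only.

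The 40 libraries held between 10018181 and 24822807 counts, with a median of 13468792. Values are counts scaled to a common library total (CPM), with totals adjusted by edgeR's TMM factors, and tests are edgeR's quasi-likelihood test with Benjamini-Hochberg adjustment over 11428 genes, in which a gene is called at an adjusted p under 0.05. IGF2BP2 mRNA fell from 85.3 ± 1.58 to 33.9 ± 3.50 CPM (SD, n = 4) with Dox and from 108 ± 4.10 to 30.2 ± 1.08 CPM with siIGF2BP2, and IGF2BP3 mRNA fell from 180 ± 4.09 to 56.2 ± 3.62 CPM with Dox and from 170 ± 4.78 to 24.7 ± 1.56 CPM with siIGF2BP3. Replicate 2 of Dox in the sgIGF2BP2 line and replicate 3 of siIGF2BP2 stood apart from their groups. Their counts differed from those of their partners by a chi-square per gene of 11.6 to 16.3 and 5.59 to 6.40, against 2.08 to 2.79 and 1.49 to 1.83 among the other 3 libraries of each group, and results without them are given. In the line's marker genes, EPCAM (13.9 CPM), KRT8 (52.9 CPM), KRT18 (185 CPM) and CDX2 (19.5 CPM) were measured, CDH1, KRT19 and VIL1 were each under 0.02 CPM, and KRT20 and LGR5 had no count. The leukocyte, fibroblast and endothelial markers PTPRC, COL1A2, PDGFRB and PECAM1 were at or near 0, and COL1A1 was at 0.329 CPM. Nothing in the labels says whether the cells had cilia, and cilia were not measured.

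Promoters of many cilia genes hold sites of RFX transcription factors, whose half-site is GTTGCC, or GGCAAC on the other strand. RefSeq promoter sequences (GRCh38.p14, 300 bases from 250 before to 50 after the start) were found for 37 of the 42 genes and searched for both forms. The half-site lay in 17 of these 37 genes (45.9%), against 16.2% of the 15328 genes of the table with a promoter entry. It lay in 8 of 17 (47.1%) of the genes that were called higher after siIGF2BP2, as described further on, and in 7 of 17 (41.2%) of those tested that were not. The windows of 30 bases printed here, from genes with the half-site in the last 60 bases before a start, show the half-site in capitals and read 5′ to 3′ on the gene's strand. They are shown because both sets of genes hold it, the first 5 called higher after siIGF2BP2 and the last 3 not called.
IFT122 (chr3:129440200-129440229, + strand): ccgcgcatgtacGTTGCCaggggtaacgca
IFT74 (chr9:26956372-26956401, + strand): tatcccgcccccGTTGCCgggatacgccgc
IFT27 (chr22:36776143-36776172, - strand): ggagcttttggcGGCAACcaatcgagggtc
DYNC2LI1 (chr2:43774019-43774048, + strand): cgtcgctcccatGGCAACccagaaggcctc
DYNC2H1 (chr11:103109363-103109392, + strand): gtgccccgagagGGCAACgcccaccgcgcg
TTC8 (chr14:88824605-88824634, + strand): cagccgtcgcggGTTGCCgggcagagtcgg
ARL6 (chr3:97764722-97764751, + strand): gaagaagctcctGTTGCCaagggaacggtg
OFD1 (chrX:13734728-13734757, + strand): aggtttccggaaGTTGCCggactggctgtg
A match of these 6 letters describes the sequence and is not a measured binding site. Among comparable genes, the half-site lay in 44.0% of 25 other transition zone and basal body genes, in 59.1% of 22 genes of motile cilia, and in 0 of 13 proliferation genes with an entry.

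The 42 genes spanned a wide range of levels in RKO cells. Per kilobase of annotated exon, the highest mean level over the 40 libraries was 18.6 CPM per kb for KIF3B, a motor subunit of the heterotrimeric kinesin, with a range of 16.1 to 20.5. The IFT-B subunits IFT52 (11.8 CPM per kb, 10.3 to 14.3) and IFT57 (11.3 CPM per kb, 9.48 to 12.5) came next, and their ranges overlapped. Among BBSome subunits, BBS4 was highest at 6.38 CPM per kb (5.53 to 7.26) and BBS1 reached only 0.375 CPM per kb (0.239 to 0.485). BBS1 and BBS5 share 3311 and 998 exon bases with other annotated genes on the same strand, and how reads there were assigned is not given in the sources used here, so their levels are uncertain. BBS5, which encodes a lipid-binding BBSome subunit, was at 0.0152 CPM in the mean of all libraries, was too low to test and is the 1 gene of the 42 left out of every comparison. RPGRIP1L, a transition zone gene, was the lowest of its role group at 0.591 CPM per kb (0.457 to 0.739). The other tested genes lay between 0.947 CPM per kb for BBS12 and 8.72 CPM per kb for IFT22.

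**Figure D1:**
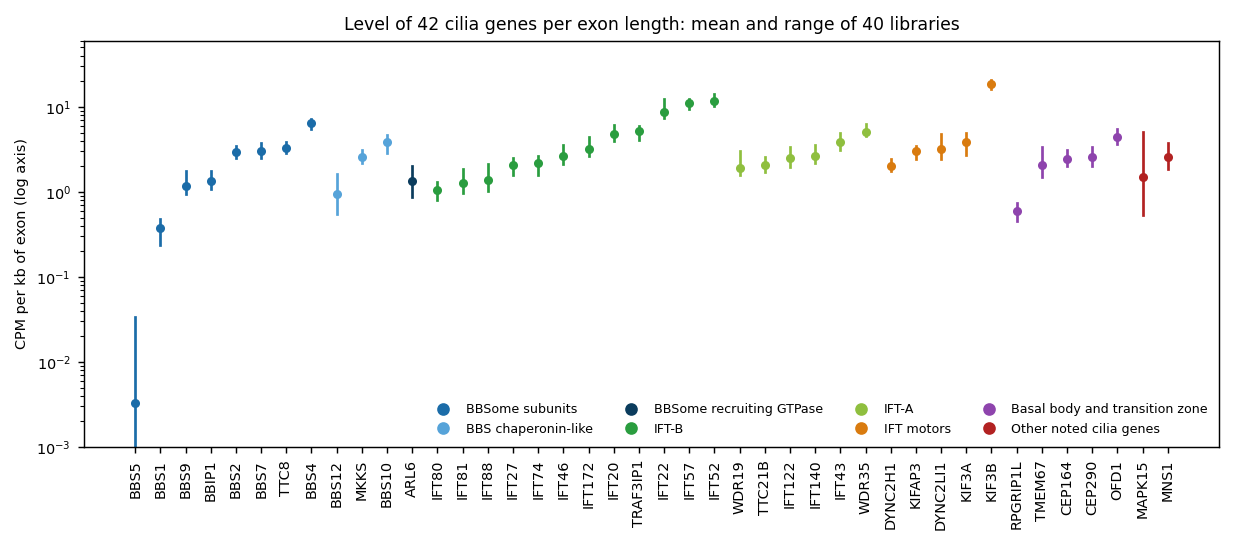
Level of each of the 42 cilia genes on a log axis, in CPM per kb of annotated exon, coloured by role. Points are means of all 40 libraries and lines run from the lowest to the highest library. KIF3B is highest at 18.6 CPM per kb, and BBS5, whose lowest library is 0 and cannot be drawn on this axis, is far below the rest. The long line of MAPK15 runs from 0.541 to 5.06 CPM per kb.

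Most IFT genes were higher by small amounts after siIGF2BP2 than after siControl. Of the 38 tested genes, without the 3 that entered because they differed, 21 were called higher and 2 lower after siIGF2BP2 against siControl. Over all tested genes 18.4% were called higher and 18.4% lower, a total of 36.8%. Among the 8489 genes whose mean level lay in the range of the tested cilia genes (2.31 to 113 CPM), 19.6% were called higher and 17.3% lower. The median log2 fold change of the 38 was 0.22, against 0.01 over all tested genes. All 4 siIGF2BP2 libraries lay above all 4 siControl libraries for 20 of the 38, against 15.0% of all genes, and below them for 2, against 15.6%. Without siIGF2BP2 replicate 3, which stood apart, 18 genes were called higher and 2 lower, with a median of 0.21. In bulk RNA, a change in the share of cells that express a gene and a change in RNA per cell cannot be told apart.

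**Figure D2:**
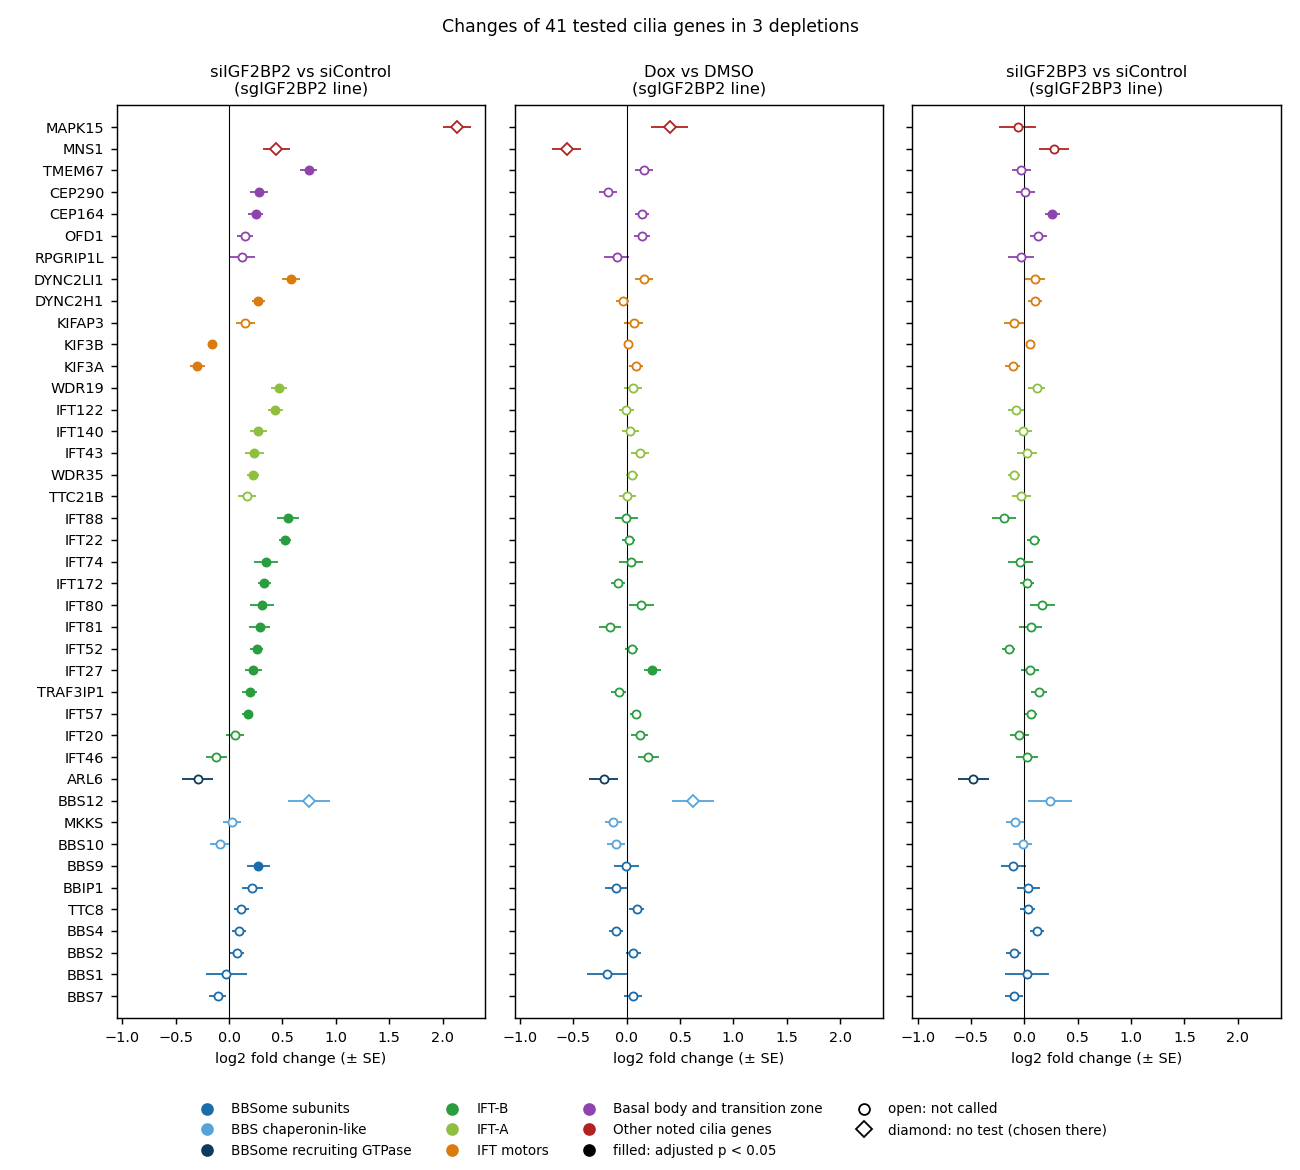
Log2 fold change with its standard error for the 41 tested cilia genes in 3 depletions, with roles by colour. Filled circles mark genes called at an adjusted p under 0.05, open circles genes not called, and diamonds the 3 genes that are not tested where IGF2BP2 was depleted. In the siIGF2BP2 panel most IFT-A and IFT-B genes are filled and to the right of 0, KIF3A and KIF3B are filled and to the left, and the panels for Dox in sgIGF2BP2 cells and for siIGF2BP3 each hold 1 filled gene.

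The IFT-B complex, the outward-moving part of the train, had 10 of 12 genes called higher and none lower, with a median log2 fold change of 0.27. The share of all tested genes was 18.4% in each direction. IFT88, a core subunit on chromosome 13 (20567069 to 20691437, GRCh38) whose loss in mice causes polycystic kidneys, was at 7.61, 7.66, 7.93 and 8.52 CPM with siControl and at 10.3, 10.9, 12.6 and 13.2 CPM with siIGF2BP2. The groups did not overlap, and the siIGF2BP2 libraries also lay above all 36 other libraries. IFT88 rose by 0.55 on the log2 scale (SE 0.10, edgeR adjusted p = 1.34e-05). IFT22, a Rab-like GTPase of the complex on chromosome 7 (101313367 to 101321823), was at 30.5, 31.9, 34.2 and 35.4 CPM with siControl and at 45.0, 46.6, 48.3 and 50.9 CPM with siIGF2BP2. No library of any other group reached the lowest of these 4 values. IFT22 rose by 0.52 (SE 0.057, edgeR adjusted p = 1.20e-11).

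Further IFT-B genes rose less. IFT172, a large peripheral subunit, rose by 0.33 (SE 0.060, edgeR adjusted p = 8.94e-06), from 27.3 ± 1.61 to 34.3 ± 2.00 CPM (SD, n = 4). IFT74, which pairs with IFT81 to bind tubulin, rose by 0.35 (SE 0.11, edgeR adjusted p = 0.0108), from 8.13 ± 0.704 to 10.3 ± 0.371 CPM. That call was lost without siControl replicate 1 (edgeR adjusted p = 0.0560). The 6 other IFT-B genes called higher were IFT80 (0.31), IFT81 (0.29), IFT52 (0.26), IFT27 (0.23), TRAF3IP1 (0.20) and IFT57 (0.18), in log2 fold change. Of these calls, IFT80 was lost without siIGF2BP2 replicate 3 or 4 and with libraries thinned to equal totals, IFT81 without siControl replicate 1 or siIGF2BP2 replicate 1 and when thinned, and TRAF3IP1 without siControl replicate 4 or siIGF2BP2 replicate 2 and when thinned. The edgeR adjusted p in these fits was 0.0525 to 0.146. IFT20, the subunit that also resides at the Golgi apparatus, and IFT46 were not called, at 0.05 (SE 0.081) and -0.12 (SE 0.099).

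The IFT-A complex, needed for the return journey and for entry of membrane proteins, had 5 of 6 genes called higher and none lower. Its median log2 fold change was 0.25, and 18.4% of all tested genes were called in each direction. WDR19 (IFT144) was at 15.8, 16.4, 16.5 and 18.6 CPM with siControl and at 21.5, 22.3, 22.4 and 26.6 CPM with siIGF2BP2, a rise of 0.47 (SE 0.077, edgeR adjusted p = 9.73e-07). IFT122, which forms the core of the complex with IFT140 and WDR19, was at 21.5, 21.8, 23.3 and 24.1 CPM with siControl and at 29.2, 29.6, 31.4 and 32.2 CPM with siIGF2BP2, a rise of 0.43 (SE 0.069, edgeR adjusted p = 4.96e-07). For both genes the siIGF2BP2 libraries lay above every other library of the series. IFT140, IFT43 and WDR35 rose by 0.27, 0.24 and 0.23 on the log2 scale, and the IFT43 call was lost in 4 of 14 alternative fits (edgeR adjusted p up to 0.136), without siControl replicate 1, siIGF2BP2 replicate 3 or 4, or when thinned. TTC21B, an adaptor at the edge of the complex, was not called at 0.17 (SE 0.084, edgeR adjusted p = 0.116).

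Over both complexes, 15 of 18 genes were called higher, each with no overlap between the groups, and none was called lower. Of all tested genes, 18.4% were called higher, and 15.0% had all 4 siIGF2BP2 libraries above all 4 siControl libraries. Without siIGF2BP2 replicate 3, 12 of the 18 were called higher. Their summed level was 353.8 to 360.8 CPM in the siControl libraries and 430.9 to 439.5 CPM in the siIGF2BP2 libraries. In the untransfected DMSO libraries of the same line it was 358.2 to 379.2 CPM, so the siIGF2BP2 libraries were above both kinds of control.

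The motors that pull the trains moved in opposite directions. DYNC2LI1, the light intermediate chain of dynein-2, was at 12.0, 14.0, 14.4 and 15.0 CPM with siControl and at 19.5, 20.1, 20.5 and 22.2 CPM with siIGF2BP2. It rose by 0.58 (SE 0.082, edgeR adjusted p = 2.57e-08). DYNC2H1, the heavy chain with the motor domain, rose by 0.27 (SE 0.061, edgeR adjusted p = 0.000226), from 29.8 ± 1.34 to 36.0 ± 0.474 CPM (SD, n = 4). KIF3A, a motor subunit of the outward kinesin on chromosome 5 (132692628 to 132737638), was at 24.7, 25.4, 26.4 and 26.9 CPM with siControl and at 18.4, 20.3, 22.4 and 22.7 CPM with siIGF2BP2. KIF3A fell by 0.30 on the log2 scale (SE 0.070, edgeR adjusted p = 0.000462), with no overlap between the groups. KIF3B, its partner motor subunit, fell by 0.16 (SE 0.038, edgeR adjusted p = 0.000579), from 114 ± 2.17 to 102 ± 3.27 CPM, again without overlap. For KIF3A and KIF3B the siIGF2BP2 libraries lay below all 36 other libraries of the series. KIFAP3, the kinesin's adaptor subunit, was not called at 0.15 (SE 0.087). The summed level of the 3 kinesin genes was 151.9 to 159.0 CPM with siControl and 134.4 to 145.7 CPM with siIGF2BP2.

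**Figure D3:**
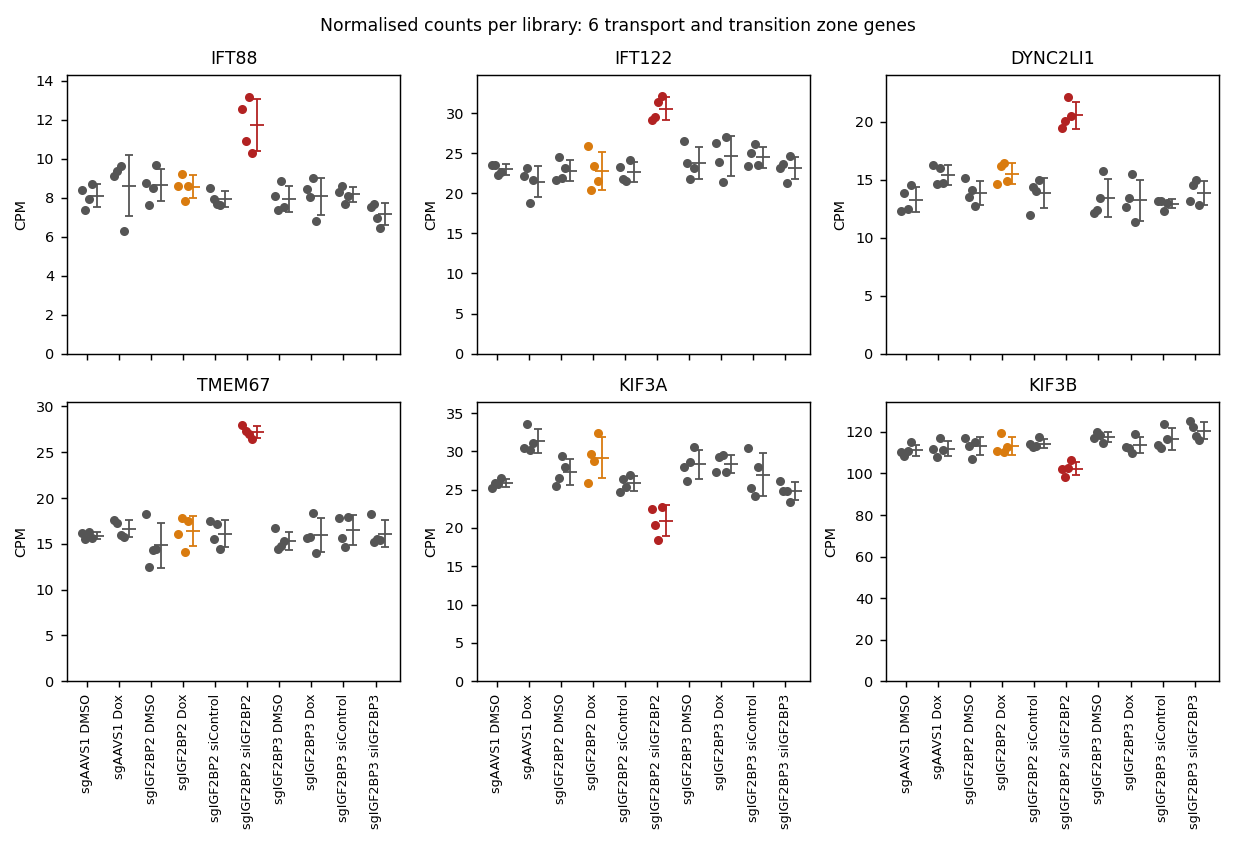
CPM of 6 transport and transition zone genes in each of the 40 libraries, by group, with points for libraries and bars for mean ± SD (n = 4). Red marks siIGF2BP2, orange Dox in the sgIGF2BP2 line and grey all other groups. For IFT88, IFT122, DYNC2LI1 and TMEM67 the red libraries stand above all others, for KIF3A and KIF3B the red groups have the lowest means (21.0 and 102 CPM), and the orange libraries lie among the grey ones or just beside them.

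At the basal body and transition zone, 3 of 5 genes were called higher and none lower, against 18.4% of all tested genes in each direction. TMEM67 (meckelin), a membrane protein of the transition zone, had the greatest rise of the 38 tested genes. It was at 14.4, 15.5, 17.1 and 17.5 CPM with siControl and at 26.4, 27.0, 27.3 and 28.0 CPM with siIGF2BP2, a rise of 0.74 (SE 0.080, edgeR adjusted p = 6.03e-12). No other library exceeded 18.4 CPM. CEP290, which links the membrane and the microtubules of the transition zone, rose by 0.28 (SE 0.083, edgeR adjusted p = 0.00561), although its groups overlapped. CEP164, a distal appendage protein of the mother centriole, rose by 0.25 (SE 0.068, edgeR adjusted p = 0.00264). RPGRIP1L (0.12, SE 0.12) and OFD1 (0.15, SE 0.076) were not called.

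BBS genes were called no more often than all tested genes, and the difference from the IFT genes was not tested. Of 10 tested BBS genes without BBS12, only BBS9 was called higher and none lower, against 18.4% of all tested genes in each direction. The median log2 fold change of the 10 was 0.05. BBS9, a scaffold subunit of the BBSome, was at 6.56, 6.78, 7.24 and 9.11 CPM with siControl and at 8.18, 8.31, 8.42 and 11.0 CPM with siIGF2BP2. These groups overlapped, and the rise was 0.27 (SE 0.11, edgeR adjusted p = 0.0424). The call, which DESeq2 did not make, was lost in 8 of 14 alternative fits (adjusted p 0.0636 to 0.289), among them those without siControl replicate 1, 2 or 4 or siIGF2BP2 replicate 2. The other BBSome subunits ranged from -0.11 for BBS7 to 0.22 for BBIP1, the smallest subunit (SE 0.10, edgeR adjusted p = 0.0798). MKKS and BBS10, of the chaperonin-like complex that assembles the BBSome, were at 0.03 (SE 0.083) and -0.09 (SE 0.087). ARL6, the GTPase that recruits the BBSome to membranes, was at -0.29 (SE 0.15, edgeR adjusted p = 0.113). The summed level of the 11 BBS genes was 141.8 to 144.9 CPM with siControl and 145.8 to 151.9 CPM with siIGF2BP2. In the DMSO libraries of the same line it was 141.1 to 155.6 CPM, so the siIGF2BP2 libraries lay within the DMSO range.

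MAPK15, an atypical MAP kinase at the base of cilia, lies on chromosome 8 (143716259 to 143722458). With siIGF2BP2 it was at 14.1, 14.4, 14.9 and 15.5 CPM, and with siControl at 2.49, 3.47, 3.52 and 3.93 CPM, a log2 difference of 2.13 (SE 0.13). The 36 libraries outside siIGF2BP2 lay between 1.65 and 4.33 CPM. With Dox in the sgIGF2BP2 line it was at 3.59 to 4.19 CPM against 2.53 to 3.69 CPM with DMSO, a log2 difference of 0.40 (SE 0.17), and the groups overlapped. Dox gave like values without IGF2BP2 guides: the log2 difference was 0.32 (SE 0.18, edgeR adjusted p = 0.244) in sgAAVS1 cells and 0.41 (SE 0.17, edgeR adjusted p = 0.192) in sgIGF2BP3 cells, neither called. After siIGF2BP3 it was -0.06 (SE 0.17, edgeR adjusted p = 0.923).

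BBS12, a chaperonin-like BBS gene on chromosome 4 (122732702 to 122744943), was low in all groups, with group means between 2.54 and 4.29 CPM. It was at 1.99, 2.35, 2.49 and 3.34 CPM with siControl and at 3.94, 4.07, 4.31 and 4.55 CPM with siIGF2BP2, a log2 difference of 0.75 (SE 0.20) without overlap. With Dox in the sgIGF2BP2 line it was at 2.76, 3.51, 5.26 and 5.62 CPM, against 2.36, 2.57, 3.06 and 3.22 CPM with DMSO. The log2 difference was 0.62 (SE 0.20), 1 of the 4 Dox libraries lay within the DMSO range, and the value was 0.83 without Dox replicate 2. In sgAAVS1 cells Dox gave -0.31 (SE 0.21, edgeR adjusted p = 0.361), and the difference between both lines' Dox effects was 0.93 (SE 0.29). BBS12 was not called with Dox in sgIGF2BP3 cells (0.15, SE 0.21) or with siIGF2BP3 (0.24, SE 0.21).

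MNS1, a filament protein inside the microtubules of motile cilia and sperm tails, lies on chromosome 15 (56421544 to 56465137) and differed in opposite directions under both IGF2BP2 depletions. With Dox in the sgIGF2BP2 line it was at 4.65, 5.08, 5.32 and 5.92 CPM against 6.62, 6.78, 7.90 and 9.17 CPM with DMSO, a log2 difference of -0.56 (SE 0.13) without overlap. With siIGF2BP2 it was at 6.86, 7.47, 8.70 and 9.52 CPM against 5.38, 5.51, 5.80 and 7.08 CPM with siControl, a log2 difference of 0.44 (SE 0.13) with overlap. MNS1 also differed between control groups. In sgAAVS1 cells Dox gave -0.34 (SE 0.14, edgeR adjusted p = 0.0763), a change that was called without sgAAVS1 Dox replicate 3 (edgeR adjusted p = 0.0203). The difference between the Dox effects of the sgIGF2BP2 and sgAAVS1 lines was -0.22, and it is not tested. IGF2BP3 depletion gave MNS1 differences in the same directions as IGF2BP2 depletion. They were -0.17 with Dox in the sgIGF2BP3 line and 0.28 with siIGF2BP3, neither called. Between siControl and DMSO in the sgIGF2BP2 line, both reference groups of the depletions that singled MNS1 out, the log2 difference was -0.37 (SE 0.13) with overlap, and it is not tested. With siControl against DMSO in the sgIGF2BP3 line MNS1 fell by 0.38 (SE 0.14, edgeR adjusted p = 0.0380). That call was lost in 5 of 14 alternative fits (edgeR adjusted p 0.0554 to 0.221), without DMSO replicate 2 or 4 or siControl replicate 1, 2 or 3. MNS1 shares 463 exon bases with TEX9 on the opposite strand, and TEX9 rose after siIGF2BP2 by 0.63 (edgeR adjusted p = 0.000110). The sources used here do not state how reads were assigned between strands, and the part of TEX9 reads in the MNS1 values was not tested.

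**Figure D4:**
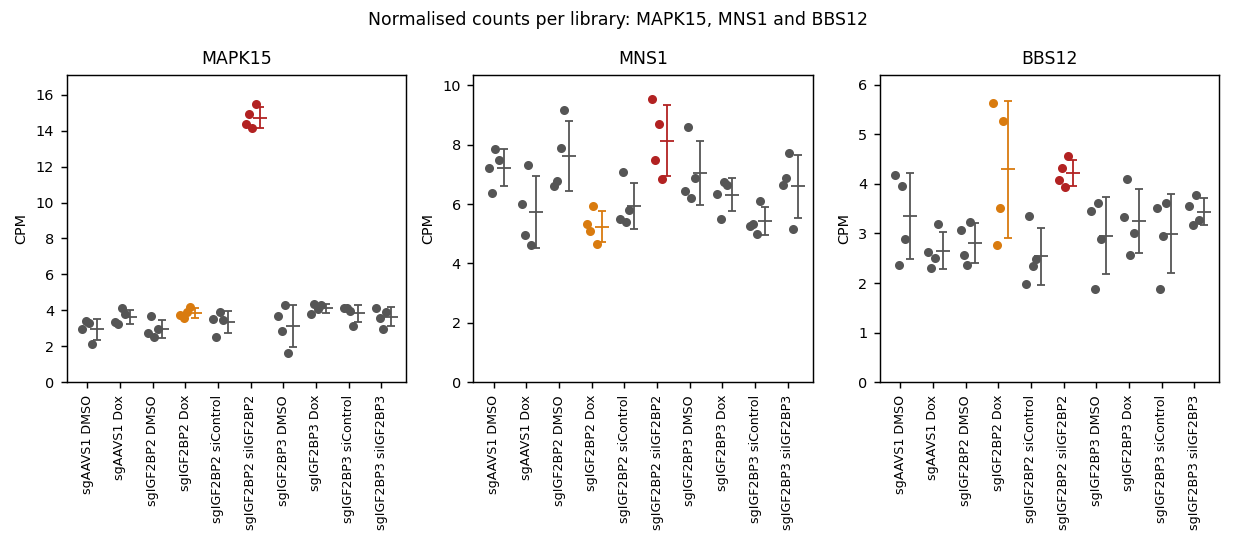
CPM of MAPK15, MNS1 and BBS12 in each of the 40 libraries, by group, with points for libraries and bars for mean ± SD (n = 4). Red marks siIGF2BP2, orange Dox in the sgIGF2BP2 line and grey all other groups. MAPK15 stands at 14.1 to 15.5 CPM with siIGF2BP2 and at no more than 4.33 CPM elsewhere, MNS1 is lowest with Dox in the sgIGF2BP2 line, and BBS12 has its highest group means in the 2 IGF2BP2-depleted groups.

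The Dox-induced knockout of IGF2BP2 was the comparison with the same target and another method, and few of the cilia genes changed in it. Of the 38 tested genes, 1 was called higher and none lower, against 10.0% and 10.4% of all tested genes (20.4% together), and the median log2 fold change was 0.04 against 0.01. Without Dox replicate 2, which stood apart, IFT27 and CEP164 were called higher and none lower. The gene called was IFT27, a GTPase that links IFT-B to the BBSome. It was also the 1 gene whose Dox libraries all lay above DMSO (8.92% of all genes), and none lay below in all 4 (9.13% of all genes). IFT27 was at 14.7, 14.9, 16.6 and 17.1 CPM with DMSO and at 18.1, 18.2, 18.7 and 19.3 CPM with Dox, a rise of 0.24 (SE 0.079, edgeR adjusted p = 0.0218) without overlap. The call was lost without DMSO replicate 2 (edgeR adjusted p = 0.0584), DMSO replicate 3 (0.130) or Dox replicate 1 (0.0631). Of the 38 genes, IFT27 alone had libraries that separated in the same direction under both IGF2BP2 depletions. With siIGF2BP2 it rose by 0.23 (SE 0.079, edgeR adjusted p = 0.0180), a call that was lost without siIGF2BP2 replicate 3 (edgeR adjusted p = 0.0682). In sgAAVS1 cells its Dox value was 0.06 (SE 0.079), and the difference between the Dox effects of both lines was not called.

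The difference between the siRNA and the Dox effect on the same target, a comparison chosen after the data had been seen, was called for 13 of the 38 genes, 11 higher and 2 lower with siRNA. Over all tested genes it was called for 26.1%, 12.4% higher and 13.7% lower, and the median difference was 0.17 for the cilia genes and 0.00 for all genes. The greatest differences were TMEM67 (0.58, SE 0.12, edgeR adjusted p = 9.56e-05), IFT88 (0.56, SE 0.15, edgeR adjusted p = 0.00306) and IFT22 (0.51, SE 0.082, edgeR adjusted p = 1.48e-06). CEP290, IFT81, IFT122, DYNC2LI1 and IFT172 had differences of 0.41 to 0.46. KIF3A (-0.38, SE 0.096) and KIF3B (-0.17, SE 0.054) were lower with siRNA. The IFT81 difference was lost without DMSO replicate 3 or Dox replicate 1 (edgeR adjusted p = 0.0918 and 0.0523), and that of KIF3B without DMSO replicate 3 or Dox replicate 2 (0.0585 and 0.0522). TRAF3IP1, at 0.27, was lost in 7 of 22 alternative fits. Without Dox replicate 2 the differences called were 10 higher and 1 lower, and without siIGF2BP2 replicate 3 they were 11 and 2. The IGF2BP2 mRNA left was 33.9 CPM with Dox and 30.2 CPM with siRNA, and the treatments differed in length as well as in method.

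Proliferation genes differed in both IGF2BP2 depletions. Of 15 listed genes, such as MKI67, RRM2 and E2F1, 7 were called higher after siIGF2BP2 (median 0.10) and all 15 were called lower with Dox in the sgIGF2BP2 line (median -0.23). Of all tested genes, 18.4% were called higher after siIGF2BP2 and 10.4% lower with Dox in that line. The summed level of the 15 was 2594 to 2643 CPM with siControl and 2828 to 2886 CPM with siIGF2BP2, and 2785 to 2834 CPM with DMSO and 2326 to 2385 CPM with Dox. Control groups differed too: 7 of the 15 were called lower with Dox in sgAAVS1 cells (median -0.10), against 8.68% of all tested genes. With siControl against DMSO, 7 were called lower and 1 higher in the sgIGF2BP2 line, against 8.16% and 10.2% of all tested genes. In the sgIGF2BP3 line 8 were called lower and 3 higher, against 8.54% and 10.9%. With the sgAAVS1 effect subtracted, Dox in the sgIGF2BP2 line lowered 4 of the 15, against 2.97% of all tested genes. The part of proliferation in the cilia gene values was not tested.

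With guides against AAVS1, Dox raised 1 of the 38 genes and lowered none. In sgAAVS1 cells KIF3A was at 25.2, 25.8, 25.9 and 26.5 CPM with DMSO and at 30.2, 30.5, 31.1 and 33.6 CPM with Dox, a rise of 0.28 (SE 0.067, edgeR adjusted p = 0.00212), while 15.9% of all tested genes were called (7.25% higher and 8.68% lower). With the sgAAVS1 effect subtracted, the Dox effect in sgIGF2BP2 cells was called for none of the 38, against 6.97% of all genes (4.01% higher and 2.97% lower), and 5 had an unadjusted p under 0.05. DESeq2 called none either.

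Depletion of IGF2BP3 left most of the 38 genes uncalled. After Dox in the sgIGF2BP3 line edgeR and DESeq2 called none of them, 2 had an unadjusted p under 0.05 in edgeR, and 2.64% of all tested genes were called (1.64% higher and 1.01% lower). Against the Dox effect in sgAAVS1 cells edgeR called none and DESeq2 called 1, against 7.78% of all genes in edgeR (4.53% higher and 3.25% lower), and 6 of the 38 had an unadjusted p under 0.05 in edgeR. After siIGF2BP3 the 1 gene called was CEP164, against 2.34% of all genes (0.936% higher and 1.40% lower). It was at 25.8, 25.9, 26.5 and 26.5 CPM with siControl and at 30.6, 30.8, 32.0 and 32.1 CPM with siIGF2BP3, a rise of 0.26 (SE 0.071, edgeR adjusted p = 0.0276). This call was lost when any 1 siControl library, or siIGF2BP3 replicate 2 or 3, was left out (edgeR adjusted p 0.0595 to 0.0919). The same siControl group was lower than the DMSO group of its line for CEP164, with a log2 difference of -0.26 (SE 0.071, edgeR adjusted p = 0.00485), and the siIGF2BP3 libraries lay within the DMSO range of 26.0 to 33.9 CPM. ARL6 was at 6.07, 6.42, 6.74 and 6.92 CPM with siControl and at 4.02, 4.17, 5.23 and 5.23 CPM with siIGF2BP3. Its groups did not overlap, but the log2 difference of -0.48 (SE 0.15) was not called (edgeR adjusted p = 0.0684).

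The effects of both siRNA pools differed for 10 of the 38 genes, against 18.7% of all tested genes. The effect was lower with siIGF2BP3 for 9 (8.82% of all genes) and higher for 1 (9.88% of all genes). TMEM67 (-0.77, SE 0.12, edgeR adjusted p = 6.83e-07) and IFT88 (-0.74, SE 0.15, edgeR adjusted p = 0.000203) differed most, followed by IFT122 (-0.51), DYNC2LI1 (-0.48), IFT22 (-0.44), IFT52 (-0.41), WDR19 (-0.35), WDR35 (-0.32) and IFT172 (-0.30). KIF3B differed the other way, by 0.21 (SE 0.054, edgeR adjusted p = 0.00301). The WDR19 difference was lost without siIGF2BP2 replicate 2 (edgeR adjusted p = 0.0744), without sgIGF2BP3 siControl replicate 3 (0.0681) and when thinned (0.0942). Since each pool was used in its own line, line and target cannot be told apart in these differences.

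Between the siControl and DMSO groups most of these genes were not called. These groups differ in transfection, solvent and possibly time, which cannot be told apart here. Of the 38 genes, 1 was called lower with siControl than with DMSO in the sgIGF2BP2 line and 3 in the sgIGF2BP3 line, and none was called higher. In the sgIGF2BP2 line 18.4% of all genes were called (10.2% higher and 8.16% lower), and in the sgIGF2BP3 line 19.4% (10.9% higher and 8.54% lower). The 38 genes were slightly lower with siControl, with 13 and 9 of 38 above 0. Their median log2 fold changes were -0.08 and -0.06, against -0.002 and -0.004 over all genes. In the sgIGF2BP2 line the 39 genes summed to 786.8 to 806.3 CPM with siControl and 801.8 to 847.9 CPM with DMSO. With siIGF2BP2 the sum was 896.1 to 913.0 CPM. BBS4, a BBSome subunit that binds pericentriolar satellites, fell by 0.17 on the log2 scale (SE 0.063, edgeR adjusted p = 0.0452) in the sgIGF2BP2 line, a call lost in 9 of 14 alternative fits, among them the omission of each library except DMSO replicate 1 (edgeR adjusted p up to 0.218). In the sgIGF2BP3 line the 3 were CEP164, OFD1 (-0.24, SE 0.079, edgeR adjusted p = 0.0255) and IFT57 (-0.18, SE 0.054, edgeR adjusted p = 0.00963). The OFD1 call was lost without DMSO replicate 2 or 4 or siControl replicate 2 (edgeR adjusted p up to 0.135), and the IFT57 call without siControl replicate 3 (0.0536). Both were lost when libraries were thinned.

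Genes with related roles outside the 42 were listed to set these results in context. Of 16 tested further IFT and BBS genes, 10 were called higher and 1 lower after siIGF2BP2 (median 0.17), against 18.4% of all tested genes in each direction. With Dox in the sgIGF2BP2 line none of the 16 was called higher and 3 were called lower, HSPB11 (-0.20), TTC30A (-0.48) and WDR34. Of all tested genes, 10.0% were called higher and 10.4% lower there. The TTC30A call was lost in 10 of 14 alternative fits, among them DESeq2 (DESeq2 adjusted p = 0.0757). WDR34, an intermediate chain of dynein-2, was at 273 to 290 CPM with siControl and at 371 to 416 CPM with siIGF2BP2, and rose by 0.47 (SE 0.037, edgeR adjusted p = 7.07e-17). With Dox in the sgIGF2BP2 line WDR34 fell by 0.27 (SE 0.038, edgeR adjusted p = 6.55e-08). In sgAAVS1 cells Dox gave 2 of the 16 called lower (8.68% of all genes) and TTC30A called higher. That TTC30A call was lost in 9 of 14 alternative fits. With the sgAAVS1 effect subtracted, TTC30A was called lower and no other of the 16 was called, against 2.97% of all genes lower. The WDR34 and HSPB11 falls were therefore not called beyond the Dox effect in sgAAVS1 cells. WDR34 and HSPB11 were chosen after their values were seen.

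Among 29 further transition zone and basal body genes, 17 were called higher and 1 lower after siIGF2BP2, against 18.4% of all tested genes in each direction. The median log2 fold change of the 29 was 0.25. TMEM107, a membrane protein of the same gate as TMEM67, was at 9.12, 9.74, 11.2 and 12.1 CPM with siControl and at 18.7, 19.3, 20.1 and 20.2 CPM with siIGF2BP2, a rise of 0.89 (SE 0.084, edgeR adjusted p = 4.26e-14). B9D1, of the same complex, rose by 0.83 (SE 0.083, edgeR adjusted p = 5.50e-13), and TCTN2 by 0.79 (SE 0.090, edgeR adjusted p = 6.10e-11). CEP41, a centrosomal protein needed for tubulin glutamylation, fell by 0.44 (SE 0.074, edgeR adjusted p = 1.34e-06) and was named, like TCTN2, after its value was seen. With Dox in the sgIGF2BP2 line 1 of the 29 was called higher and 1 lower, against 10.0% and 10.4% of all tested genes. With siIGF2BP3 none was called, against 2.34% of all tested genes.

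**Figure D5:**
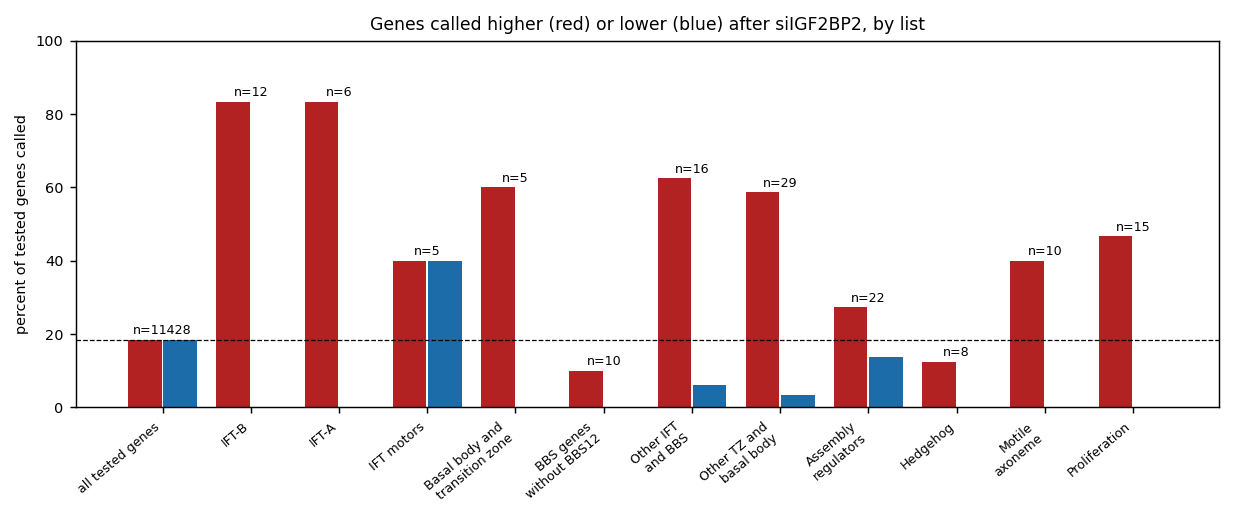
Percent of the tested genes of each list that were called higher (red) or lower (blue) after siIGF2BP2, with the number tested over each pair of bars. The dashed line is the 18.4% of all 11428 tested genes called higher. IFT-A and IFT-B reach 83.3% with none lower, BBS genes without BBS12 stay at 10%, the motors have equal bars, and the 29 further transition zone and basal body genes reach 58.6%.

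What the genes that rose share in other measures was also examined. The 21 genes called higher after siIGF2BP2 had a median annotated exon length of 7175 bases and a median level of 21.6 CPM, the 17 tested genes not called higher 6103 bases and 15.3 CPM, and all tested genes 5129 bases and 32.0 CPM. Of the 42 genes, 11 share exon bases with a gene on the opposite strand and IFT43 shares 85 exon bases with TTLL5, a tested gene, on the same strand. On the same strand, IFT80 (1953 bases) and MKKS (882 bases), like BBS1 and BBS5, also share exon bases with annotated genes that were not tested, and their levels are uncertain in the same way. Some partners did not follow the cilia gene: PLAA, opposite IFT74, fell by 0.38 (edgeR adjusted p = 2.70e-11), and MBD4, opposite IFT122, was not called (-0.02). SMC4, opposite IFT80, rose by 0.19 (edgeR adjusted p = 0.000113), and the part of its reads in the IFT80 values was not tested.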

How the data were processed

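The authors deposited whole-number counts of reads per gene for 40 libraries, not normalized; per the labels' protocols, the libraries came from poly(A) RNA with a kit that keeps strand. The submitters' processing notes name bcl2fastq 2.20.0.422, STAR 2.7.5c and hg38; the counting tool, the annotation and the use of strand are not given in the sources used here. Newly made RNA was not separated from older RNA.

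Of 19962 genes, 11428 passed edgeR's filterByExpr by group and held 99.98% of counts. Counts were scaled with TMM (trimmed mean of M-values, factors 0.978 to 1.03) and tested with edgeR 4.0.16 in R 4.3.3 (limma 3.58.1) by glmQLFit and glmQLFTest on all 40 libraries with 1 coefficient per group and no covariate, followed by Benjamini-Hochberg adjustment over all tested genes. The common biological coefficient of variation was 3.79%. The standard error is the size of the log2 fold change divided by the square root of F. There were 11 comparisons, of which the difference between siRNA and Dox effects on IGF2BP2 was added after seeing the data. Fits were tested on simulated data.

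The 42 genes and all lists were chosen with earlier results of these data known. Genes are named by a rule: MAPK15, MNS1 and BBS12 throughout, up to 8 called rises and 8 called falls per comparison, genes separated in the same direction by siRNA and Dox for 1 target, the highest and lowest level per kb of each role, and up to 5 called genes of other cilia lists per comparison, of which those for siIGF2BP2 and a few others are described and the rest are left out as lying outside the 42; the other genes of the 42 are given so that each is accounted for, and were chosen after their values were seen. Coordinates and exon lengths come from GENCODE 29 (GRCh38) and promoters from RefSeq (GRCh38.p14), and of 44 promoter entries 41 start within an annotated GENCODE transcript.

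Per the labels each library is 1 well and the experiment was done in quadruplicate; whether the wells came from separate cultures or days is not stated, so p-values measure only the spread between these libraries, which may be technical. Counts of 60 replicate pairs differed by more than sampling noise (chi-square per gene 1.49 to 4.85, and up to 16.3 for the pairs of 2 libraries that stood apart), so none was treated as a duplicate. Alternatives were RLE size factors, DESeq2 1.42.0, no filter on low counts, only the groups compared, a replicate block, libraries thinned to 10018181 counts, and each library left out.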

Additional observations from a re-analysis of the deposited data

Results flagged for a closer look

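In 110 sets of 4 libraries (11 named genes in 10 groups), 7 had 1 library far from the other 3, where chance gives about 1 in 20. The low libraries were MAPK15 at 3.13 CPM (others 3.97 to 4.13) and IFT22 at 31.0 CPM (33.6 to 34.0) with siControl in the sgIGF2BP3 line, IFT88 at 6.29 CPM (9.11 to 9.65) and WDR19 at 15.5 CPM (17.3 to 17.7) with Dox in the sgAAVS1 line, IFT22 at 34.3 CPM (36.7 to 37.0) with Dox in the sgIGF2BP2 line, and WDR19 at 14.9 CPM (17.1 to 17.5) with DMSO in the sgIGF2BP3 line. TMEM67 was high in 1 library with siIGF2BP3, at 18.3 CPM (15.2 to 15.5).

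The effect of siIGF2BP3 differed from that of siIGF2BP2 by edgeR's test of the difference for IFT22 (-0.44), IFT52 (-0.41), IFT88 (-0.74), IFT122 (-0.51), WDR35 (-0.32), WDR19 (-0.35), DYNC2LI1 (-0.48), TMEM67 (-0.77) and KIF3B (0.21), in log2 units. The effect of siIGF2BP2 differed from that of Dox in the same line for IFT22 (0.51), IFT81 (0.44), IFT88 (0.56), IFT172 (0.41), IFT122 (0.44), DYNC2LI1 (0.42), CEP290 (0.46), TMEM67 (0.58), KIF3A (-0.38) and KIF3B (-0.17).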

How the results depend on the processing

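Of 100 named values with a test, 68 kept their call and direction in every alternative fit and none reversed. The number of the 38 genes called after siIGF2BP2 was 23 in the reported fit, 22 with DESeq2, 18 with thinned libraries and 19 to 24 with 1 library left out. Leaving out 1 library gave 0 to 2 calls for Dox in sgIGF2BP2 cells, 0 to 1 for siIGF2BP3, 0 to 2 for the Dox effect in sgIGF2BP3 less that in sgAAVS1 cells, and 0 to 1 for siControl against DMSO in the sgIGF2BP2 line, where the reported counts were 1, 1, 0 and 1. For siIGF2BP3 the count was 2 with no filter and 2 with only the groups compared. For the Dox effect in sgIGF2BP3 less that in sgAAVS1 cells it was 1 with DESeq2 and 1 with only the groups compared. For siControl against DMSO in the sgIGF2BP2 line it was 0 with no filter and 2 with RLE size factors, only the groups compared, thinned libraries or the replicate block. For siControl against DMSO in the sgIGF2BP3 line it was 1 with thinned libraries against 3. The samples were not treated as paired by replicate number. Over 28 pairs of same-numbered libraries the correlation was -0.090 to 0.092, and the own number was best in 8 of 28. Of these 8, 4 of 4 were in siControl against DMSO in the sgIGF2BP2 line (0.044 to 0.092) and 2 of 4 in the same comparison of the sgIGF2BP3 line. This is a hint of weak pairing there, from the data and not from the design. Apart from the 1 count given, the replicate block moved no count of calls among the 38 genes by more than 1.5 times. Among IFT-A genes the highest and lowest level per kb changed when the longest transcript replaced the union of exons. Genes of low counts such as BBS1 and BBS12 had standard errors near 0.2, so changes of that size, and larger ones too, could go uncalled at this depth.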

Other observations

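Genes of motile cilia were mostly silent in these cells, and 10 of 28 could be tested. FOXJ1, the master regulator of motile ciliogenesis, was at 0.0207 CPM in the mean of all libraries, and the axonemal dynein gene DNAI1 at 0.0695 CPM, while MCIDAS (13.5 CPM) and CCNO (24.3 CPM), which act early in multiciliated cells, were measured. After siIGF2BP2, 4 of the 10 were called higher and none lower, against 18.4% of all tested genes in each direction. CCDC40, a ruler protein of the axoneme, was at 3.80, 4.29, 4.33 and 4.44 CPM with siControl and at 7.66, 7.78, 8.23 and 10.0 CPM with siIGF2BP2, a log2 rise of 1.00 (SE 0.13, edgeR adjusted p = 1.18e-09). HYDIN, of the central pair apparatus, rose by 0.87 (SE 0.23, edgeR adjusted p = 0.00153) and SPAG16 by 0.41 (SE 0.10, edgeR adjusted p = 0.00110). RSPH1, of the radial spoke, was under 1 CPM with siControl and siIGF2BP2 and rose by 1.30 (SE 0.49, edgeR adjusted p = 0.0285), a call lost in 4 of 13 alternative fits, when thinned and without siControl replicate 1 or 4 or siIGF2BP2 replicate 4 (edgeR adjusted p 0.0750 to 0.167). RSPH1 also rose with Dox in the sgIGF2BP2 line, by 1.98 (SE 0.46, edgeR adjusted p = 0.000918), but the difference from the Dox effect in sgAAVS1 cells was not called (1.74, SE 0.69, edgeR adjusted p = 0.116).

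Among 22 tested regulators of cilium assembly and disassembly, 6 were called higher and 3 lower after siIGF2BP2, against 18.4% of all tested genes in each direction, so the count of calls was near that of all genes. HDAC6, a tubulin deacetylase that acts in cilium disassembly, rose by 0.61 (SE 0.10, edgeR adjusted p = 1.75e-06), and KIF24, a kinesin that holds back cilium assembly, rose by 0.71 (SE 0.070, edgeR adjusted p = 3.58e-13). KIF24 fell with Dox in the sgIGF2BP2 line by 0.36 (SE 0.078, edgeR adjusted p = 0.000350). RAB3IP (Rabin8), which activates RAB8 at the cilium base, fell with siIGF2BP2 (-0.30), siIGF2BP3 (-0.19) and Dox in the sgIGF2BP2 line (-0.45). It also fell with Dox in sgAAVS1 and sgIGF2BP3 cells. RAB3IP was higher with siControl than with DMSO in the sgIGF2BP2 line (0.41, SE 0.043, edgeR adjusted p = 8.52e-12) and in the sgIGF2BP3 line (0.36, SE 0.044, edgeR adjusted p = 8.44e-10), so both siRNA falls were measured against raised siControl libraries. Of 8 tested Hedgehog pathway genes, which signal through cilia in vertebrates, 1 was called higher after siIGF2BP2 and none lower. The share of all tested genes was 18.4% in each direction, so the Hedgehog genes were called no more often. The gene called was PTCH1 (0.32, SE 0.088, edgeR adjusted p = 0.00262), and SMO, GLI2 and GLI3 were at or near 0. HDAC6, SPAG16 and PTCH1 were chosen after their values were seen.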
